A study of Mus musculus with 12 samples.

Results

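The genes described here are 6 of the 48795 genes in the table of a mouse liver RNA-seq study, and were taken by their symbols. They are *Acat1*, *Bdh1*, *Bdh2*, *Oxct1*, *Slc16a1* and *Slc16a7*, which were chosen for their roles in making, exchanging, using and exporting ketone bodies. The choice was made with earlier results of these data known. All 6 were among the 13812 genes with enough counts to be tested. Livers came from 12 female mice aged 4 months, kept on normal chow and matched for sex and age as littermates. The 4 groups of 3 mice were NTS WT fed (mice 254, 257 and 323), NTS WT fasted (265, 282 and 322), NTS KO fed (277, 303 and 319) and NTS KO fasted (284, 290 and 295). Fed mice ate at will and fasted mice went without food for 22 h. Nothing in the labels describes how the *Nts* gene, which encodes the gut peptide neurotensin, was inactivated.

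During fasting the liver turns fatty acids into acetyl-CoA faster than the citric acid cycle can burn it, and the surplus leaves the liver as acetoacetate and β-hydroxybutyrate. In hepatocyte mitochondria, ACAT1 joins acetyl-CoA units to acetoacetyl-CoA, which is carried on to acetoacetate, and BDH1 reduces acetoacetate to β-hydroxybutyrate. ACAT1 and BDH1 also work in the opposite direction in tissues that burn ketone bodies, and ACAT1 takes part in isoleucine breakdown. OXCT1 activates acetoacetate for use, and hepatocytes are known for having very little of it. BDH2 is a cytosolic dehydrogenase of the same reaction class, also linked to siderophore synthesis. SLC16A1 (MCT1) and SLC16A7 (MCT2) are proton-coupled transporters of lactate, pyruvate and ketone bodies across the plasma membrane.

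The sequence upstream of 3 members is shown because they stand for the 3 outcomes of fasting described below: one that fell, one that rose and one that did not pass the test. RefSeq sequences for GRCm38.p6 matched 4 of the 6 members at 5 start sites, and each window covers the 250 bases before a start on the plus strand. *Acat1* and *Slc16a7* had no entry. *Bdh2* is shown at chr3:135280971-135281220, *Bdh1* at its first start at chr16:31422047-31422296, and *Slc16a1* at chr3:104638414-104638663. Capitals mark CG dinucleotides, the letters in which cytosine can be methylated.
Bdh2: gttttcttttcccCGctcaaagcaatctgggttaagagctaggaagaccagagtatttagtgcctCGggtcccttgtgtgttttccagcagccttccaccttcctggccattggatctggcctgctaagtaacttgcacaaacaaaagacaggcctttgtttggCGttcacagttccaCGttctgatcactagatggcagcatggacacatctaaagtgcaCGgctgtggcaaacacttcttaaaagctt
Bdh1: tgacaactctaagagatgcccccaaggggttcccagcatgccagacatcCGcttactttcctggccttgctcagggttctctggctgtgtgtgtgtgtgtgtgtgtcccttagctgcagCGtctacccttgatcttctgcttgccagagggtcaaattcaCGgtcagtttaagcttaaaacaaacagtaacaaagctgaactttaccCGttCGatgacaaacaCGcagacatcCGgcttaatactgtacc
Slc16a1: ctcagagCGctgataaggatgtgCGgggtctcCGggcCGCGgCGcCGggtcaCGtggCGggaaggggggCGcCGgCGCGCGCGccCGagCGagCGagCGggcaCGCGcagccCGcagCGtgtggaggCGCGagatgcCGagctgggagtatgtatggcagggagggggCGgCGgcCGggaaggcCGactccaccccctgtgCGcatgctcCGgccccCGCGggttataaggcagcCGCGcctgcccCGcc
The *Slc16a1* window held 37 CG dinucleotides and had a GC content of 76.4%. Only 2.2% of all 32851 promoter windows of this length held as many, and the median window held 6. The *Bdh2* window held 5 (GC 48.0%) and the first *Bdh1* window 7 (GC 49.6%), both near that median. The second *Bdh1* window (chr16:31428503-31428752) held 9, and that of *Oxct1* (chr15:4026178-4026427) held 6. Of the 5 windows, 0 held AGGTCA (the core motif of nuclear receptors, in 14.0% of all windows on either strand), DR1 (a pair of such cores spaced by 1 base, in 0.0335%), TGACGTCA (the cyclic AMP response element, in 1.55%) or TGTTTAC (a forkhead site, in 3.17%). Every DR1 also contains AGGTCA. The absence of a match says only that these letters were not in the windows.

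Depth ran from 21999647 to 45273069 expected counts per mouse, so that 3 counts correspond to between 0.0709 and 0.142 CPM, the unit of all levels below, in which each count is divided by library size after TMM correction for composition. *Nts* went against the genotype labels. The 6 libraries labelled NTS WT held 0 *Nts* counts, whereas those labelled NTS KO held 46, 40 and 15 when fed and 12, 4 and 18 when fasted. Directions between genotypes are therefore those of the library labels throughout. The fasting labels were checked on known fasting genes. Of 7 genes known to rise, 6 were higher in fasted livers over both genotypes, and of 8 lipogenic genes 7 were lower. Of all tested genes, 32.8% passed in that comparison. *Pdk4*, a kinase that spares pyruvate, had a log2 fold change of 0.87 (adjusted p = 0.0529, edgeR), and *Fasn*, fatty acid synthase, fell by 2.44 (adjusted p = 0.000233, edgeR). Summed hepatocyte markers lay between 114500 and 145800 CPM in the 12 livers. Most of that sum was *Alb* (albumin), with group means of 92980 to 106300 CPM. Of the 8 hepatocyte markers, 2 were higher and 2 lower in fasted livers over both genotypes.

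Scaled to the length of the longest transcript (CPM per kb), the 6 genes spanned a wide range of levels. *Acat1* averaged 131.5 ± 37.7 CPM per kb (SD, n = 12 mice) and *Bdh1* 93.4 ± 24.9. The ranges of these mitochondrial enzymes overlapped between mice (86.5 to 194 and 64.6 to 147), but within each of the 12 mice *Bdh1* was lower, at 0.540 to 0.897 of *Acat1*. The plasma membrane transporters followed, with *Slc16a1* at 26.8 ± 6.42 and *Slc16a7* at 12.1 ± 5.18 CPM per kb. *Bdh2* averaged 2.84 ± 1.98 CPM per kb and *Oxct1* 1.04 ± 0.25. *Bdh2* overlapped with both neighbours in this order, since it ran from 0.991 to 7.10 CPM per kb while *Oxct1* ran from 0.592 to 1.37 and *Slc16a7* from 5.47 to 19.3. With the median transcript length in place of the longest, the order of the averages over 12 mice was the same and *Bdh2* stood at 7.41 CPM per kb. At these lengths (1202 bases for *Bdh2* and 10846 for *Slc16a7*), the fed group means of *Bdh2* lie above those of *Slc16a7* per kb.

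Fasting changed the ketone body genes in both directions. The mitochondrial enzymes *Acat1* and *Bdh1* and the transporter *Slc16a7* were higher in fasted livers, and *Bdh2* and *Oxct1* were lower. *Slc16a1* did not pass the test. Averaged over both genotypes, 5 of the 6 genes passed an adjusted p under 0.05 in the quasi-likelihood test of edgeR (3 higher and 2 lower), while 32.8% of all tested genes did. In NTS WT livers, 3 of 6 passed (2 higher and 1 lower) against 18.1% of all genes, and in NTS KO livers 5 of 6 (3 higher and 2 lower) against 16.8%. The median log2 fold change of the 6 genes was 0.23 in NTS WT and 0.65 in NTS KO livers, beside a median near 0 for all genes (-0.0032 and -0.0108). The fed and fasted groups did not overlap for 5 of the 6 genes in either genotype, against 36.0% of all tested genes in NTS WT and 35.2% in NTS KO livers. Because the 6 genes were chosen with earlier results known, these counts are descriptions and no test of the set.

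**Figure D1:**
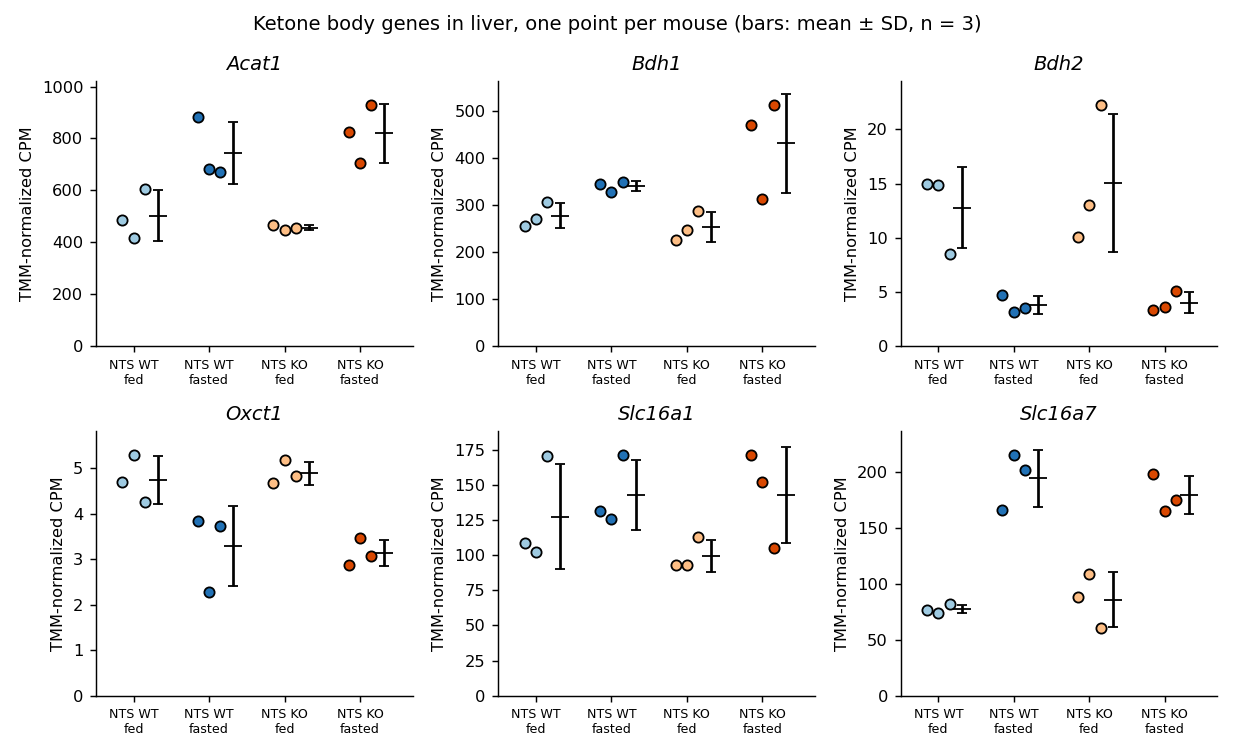
TMM-normalized CPM of the 6 genes (vertical axes, each from 0) in the 12 livers, 1 point per mouse, by genotype label and feeding state (horizontal axes), with bars for the mean ± SD of 3 mice. Fasted points lie above all fed points of their genotype for *Acat1*, *Bdh1* and *Slc16a7* and below them for *Bdh2* and *Oxct1*, and the groups overlap for *Slc16a1*.

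*Acat1* (ENSMUSG00000032047, chr9:53580522-53610382 in GRCm38), the mitochondrial acetoacetyl-CoA thiolase, was the most abundant of the 6 per length. Its levels were 485.8, 414.6 and 606.9 CPM in NTS WT fed livers and 881.2, 681.7 and 669.8 CPM in NTS WT fasted livers. In NTS KO livers they were 468.1, 445.5 and 455.9 CPM when fed and 826.5, 703.6 and 928.3 CPM when fasted. Every fasted liver was above every fed liver of either genotype, with the narrowest gap between fed mouse 323 and fasted mouse 322. *Acat1* rose 1.48-fold with fasting in NTS WT livers (log2 fold change 0.57, SE 0.17, adjusted p = 0.0322, edgeR). The rise was 1.80-fold in NTS KO livers (0.84, SE 0.17, adjusted p = 0.00453, edgeR). The NTS WT result was lost without mouse 254, 257, 265 or 282 (adjusted p between 0.0636 and 0.125, edgeR), and also when the 6 NTS WT mice were fitted alone (0.0679). The average over both genotypes kept its call without any one mouse.

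*Bdh1* (ENSMUSG00000046598, chr16:31422280-31458901), the mitochondrial β-hydroxybutyrate dehydrogenase, measured 254.7, 270.2 and 306.1 CPM in NTS WT fed and 345.6, 328.7 and 347.9 CPM in NTS WT fasted livers. In NTS KO livers it measured 225.0, 245.9 and 288.2 CPM when fed and 469.5, 312.4 and 512.5 CPM when fasted. Fed and fasted livers did not overlap in either genotype, and the NTS KO fasted group was the most spread, with a coefficient of variation of 24.4% against 3.08% in NTS WT fasted livers. Fasting raised *Bdh1* 1.71-fold in NTS KO livers (log2 fold change 0.77, SE 0.17, adjusted p = 0.00841, edgeR), a call held without any one mouse. In NTS WT livers the log2 fold change was 0.30 (95% confidence interval -0.07 to 0.67) and did not pass (adjusted p = 0.247, edgeR). That one genotype passed and the other did not is no test of a difference, which is given below.

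*Bdh2* (ENSMUSG00000028167, chr3:135281221-135304426), the cytosolic relative, moved the other way and had the largest change of the 6 genes. It was at 14.9, 14.9 and 8.47 CPM in NTS WT fed livers and at 4.70, 3.11 and 3.53 CPM in NTS WT fasted livers. The NTS KO livers had 10.0, 13.0 and 22.2 CPM when fed and 3.30, 3.59 and 5.08 CPM when fasted. The lowest fed liver, mouse 323, was above the highest fasted liver of either genotype. *Bdh2* was 3.41-fold lower after fasting in NTS WT livers (log2 fold change -1.77, SE 0.32, adjusted p = 0.00301, edgeR) and 3.73-fold lower in NTS KO livers (-1.90, SE 0.32, adjusted p = 0.00183, edgeR). These values rest on 72 to 552 counts per mouse.

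*Oxct1* (ENSMUSG00000022186, chr15:4026383-4155344), the enzyme of ketone body use, was the lowest of the 6 genes, with 63 to 177 counts per mouse. It measured 4.69, 5.30 and 4.26 CPM in NTS WT fed and 3.84, 2.28 and 3.74 CPM in NTS WT fasted livers, and 4.68, 5.18 and 4.83 CPM in NTS KO fed and 2.89, 3.46 and 3.07 CPM in NTS KO fasted livers. All 6 fasted livers were below all 6 fed livers. Over both genotypes *Oxct1* was 1.50-fold lower after fasting (log2 fold change -0.59, SE 0.15, adjusted p = 0.00708, edgeR). Within NTS KO livers the log2 fold change was -0.64 (SE 0.21, adjusted p = 0.0469, edgeR), and this call was lost without any one of the 6 NTS KO mice or of the 3 NTS WT fed mice (adjusted p between 0.0516 and 0.138, edgeR). Within NTS WT livers it was -0.53 (SE 0.21, adjusted p = 0.0878, edgeR).

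Other liver cell types can contain *Oxct1*, and markers of some of them were also lower in fasted livers (32.8% of all tested genes passed over both genotypes). The summed level of 7 sinusoidal endothelial markers was 187 to 267 CPM in fed and 155 to 185 CPM in fasted livers, with 4 of the 7 lower and 1 higher over both genotypes. For 7 stellate cell and fibroblast markers the sum was 245 to 325 CPM in fed and 222 to 252 CPM in fasted livers, with 5 of the 7 lower. Of 6 cholangiocyte markers 4 were tested and 1 passed, *Spp1* (osteopontin), at 27.6 to 43.5 CPM in fed and 10.7 to 25.4 CPM in fasted livers. It made up most of a summed level of 33.4 to 49.8 CPM in fed and 13.8 to 29.8 CPM in fasted livers, and *Sox9*, *Epcam* and *Krt19* did not pass. Of 7 lymphocyte markers 0 passed over both genotypes, and of 7 markers of Kupffer cells (resident macrophages) 1 was lower and 0 were higher. The part of these cell types in the *Oxct1* result was not tested. Of 5 skeletal muscle markers, *Acta1* and *Myh4* were at 0 in all 12 livers and the sum did not exceed 0.833 CPM. In whole liver, fewer cells of a type and less RNA per cell cannot be told apart.

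*Slc16a7* (ENSMUSG00000020102, chr10:125219270-125389465) had the largest rise of the 6 genes. It encodes MCT2, a transporter with high affinity for pyruvate and ketone bodies, and lies 22.7 Mb from *Nts* on chromosome 10. Its levels were 76.9, 74.2 and 81.6 CPM in NTS WT fed livers and 166.1, 215.2 and 201.6 CPM in NTS WT fasted livers. In NTS KO livers they were 87.9, 109.1 and 60.8 CPM when fed and 198.4, 165.0 and 174.4 CPM when fasted. The highest fed liver (mouse 303) was well below the lowest fasted liver (mouse 290). The rise was 2.51-fold in NTS WT livers (log2 fold change 1.32, SE 0.18, adjusted p = 0.000436, edgeR) and 2.09-fold in NTS KO livers (1.06, SE 0.18, adjusted p = 0.00162, edgeR).

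*Slc16a1* (ENSMUSG00000032902, chr3:104638668-104658462), which encodes the widely expressed MCT1, was the only one of the 6 genes whose fed and fasted groups overlapped. It measured 109.0, 102.6 and 170.4 CPM in NTS WT fed, 131.5, 125.7 and 171.0 CPM in NTS WT fasted, 93.1, 92.8 and 112.6 CPM in NTS KO fed and 171.4, 152.2 and 105.0 CPM in NTS KO fasted livers. Fed mouse 323 lay with the highest fasted livers, and fasted mouse 295 lay among the fed livers. The log2 fold change with fasting was 0.16 in NTS WT livers (95% confidence interval -0.30 to 0.63, adjusted p = 0.638, edgeR). It was 0.52 in NTS KO livers (0.05 to 0.99, adjusted p = 0.117, edgeR). Over both genotypes it was 0.34 (adjusted p = 0.104, edgeR), and it passed without mouse 323 (0.48, adjusted p = 0.0177, edgeR) or without mouse 295 (adjusted p = 0.039, edgeR).

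The balance between related genes shifted with feeding state, and is given as a description of per-length levels. *Slc16a7* stood at 0.273 ± 0.059 of *Slc16a1* in NTS WT fed and 0.595 ± 0.12 in NTS WT fasted livers (SD, n = 3). In NTS KO livers the ratio was 0.381 ± 0.14 when fed and 0.559 ± 0.13 when fasted, and there fed mouse 303 (0.505) lay above fasted mice 284 (0.497) and 290 (0.466). As a share of the summed Slc16 family, *Slc16a7* was 6.03% ± 0.41 in NTS WT fed and 12.2% ± 1.5 in NTS WT fasted livers, and 6.57% ± 0.66 and 11.9% ± 0.60 in NTS KO livers. The share of *Slc16a1* stayed between group means of 18.7% and 22.6%. *Bdh1* exceeded *Bdh2* by 21.4 ± 9.6 times in NTS WT fed and 83.4 ± 15 times in NTS WT fasted livers. In NTS KO livers the ratio was 16.3 ± 4.3 when fed and 99.0 ± 26 when fasted. These *Bdh1* to *Bdh2* ratios use the longest transcripts and would be smaller with median lengths. The longest and median lengths are 3134 and 1202 bases for *Bdh2*, and 3485 and 3130 bases for *Bdh1*.

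**Figure D2:**
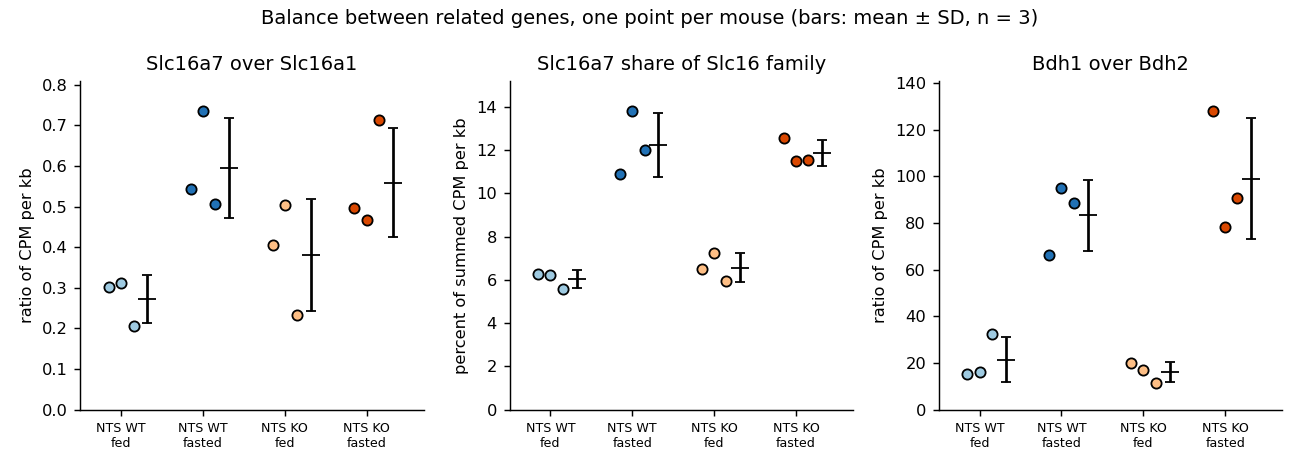
Ratios and shares of CPM per kb (vertical axes, each from 0) in each of the 12 livers by group, with bars for the mean ± SD of 3 mice. The *Slc16a7* share of the Slc16 family and the *Bdh1* to *Bdh2* ratio separate fed from fasted livers in both genotypes, whereas the *Slc16a7* to *Slc16a1* ratio overlaps in NTS KO livers.

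The second question of the design was whether the genotype labels go with a difference. Comparing NTS KO with NTS WT livers, 0 of the 6 genes passed in fasted mice, in fed mice, in the average of both or in the test of the difference between the fasting responses. The background was 0% of all tested genes in each of these comparisons with edgeR. At an unadjusted p under 0.05, 0 of the 6 genes passed, beside 685 of all genes in fasted, 876 in fed and 859 over both states, and 663 for the difference. DESeq2 called 1, 12, 15 and 2 genes in these comparisons in the same order, 0 of them among the 6. The NTS KO and NTS WT groups overlapped for all 6 genes in both feeding states, while 12.2% of all tested genes did not overlap in fasted and 10.7% in fed livers.

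The intervals show what sizes of difference these mice leave possible. *Bdh1* came nearest to a difference in fasted livers, at a log2 fold change of 0.34 in libraries labelled NTS KO (95% confidence interval -0.03 to 0.71, adjusted p = 0.917, edgeR). NTS KO mice 284 and 295 were above all 3 NTS WT fasted mice and mouse 290 was below them. Its fasting response differed between genotypes by 0.47 (-0.05 to 0.99, adjusted p = 0.897, edgeR). *Slc16a1* differed most in fed livers, by -0.36 (-0.82 to 0.11, adjusted p = 0.804, edgeR). In fasted livers *Acat1* differed by 0.14 (-0.22 to 0.50) and *Slc16a7* by -0.12 (-0.50 to 0.27). The intervals were widest for *Bdh2*, at 0.11 (-0.60 to 0.81) in fasted and 0.23 (-0.42 to 0.88) in fed livers. *Oxct1* differed by -0.06 (-0.51 to 0.38) in fasted and 0.04 (-0.39 to 0.48) in fed livers.

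**Figure D3:**
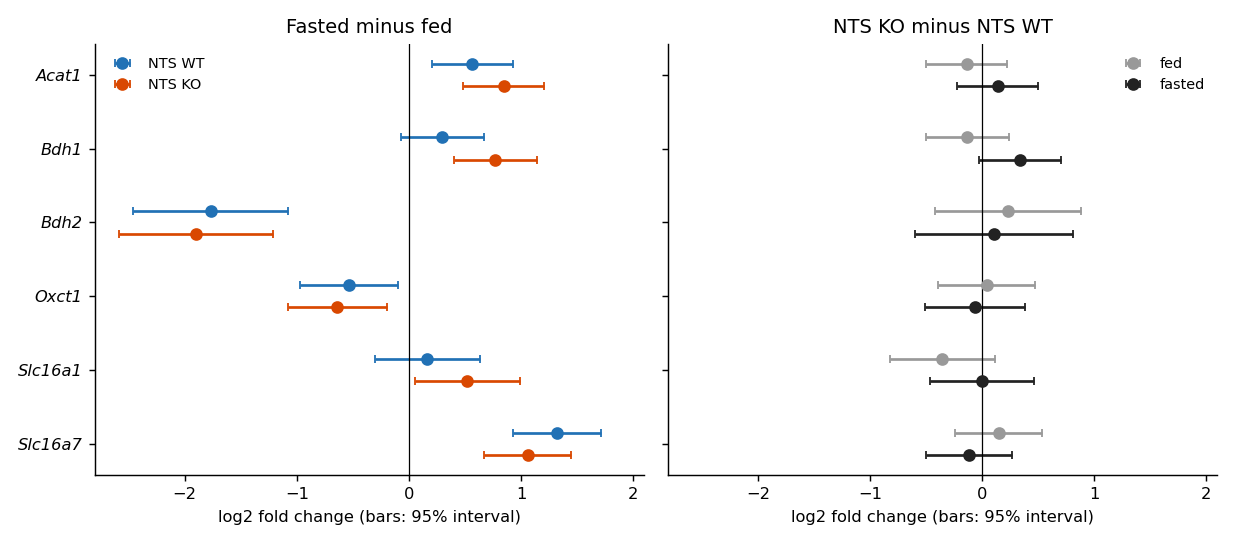
Log2 fold changes (horizontal axes) with 95% confidence intervals for the 6 genes (vertical axis), fasted minus fed on the left for NTS WT and NTS KO livers and NTS KO minus NTS WT on the right for fed and fasted livers. On the left *Bdh2* and *Slc16a7* lie farthest from 0 on opposite sides, and on the right every interval includes 0.

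*Acaa2* and *Hadh*, enzymes of the last steps of β-oxidation, each rose by 0.39 over both genotypes (adjusted p = 0.00801 and 0.0153, edgeR). In NTS WT livers the log2 fold changes of 0.28 and 0.33 did not pass (adjusted p = 0.182 and 0.158, edgeR), and in NTS KO livers *Acaa2* rose by 0.50 (adjusted p = 0.0256, edgeR). *Hadh* did not pass in NTS KO livers either. Its groups overlapped there, at 334.9 to 421.9 CPM when fed and 415.4 to 565.5 CPM when fasted.

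Enzymes that use acetoacetate or build HMG-CoA in the cytosol, where they feed sterol and fatty acid synthesis, moved opposite to *Acat1* and *Bdh1*. All 3 were lower in each genotype, where 18.1% of all tested genes passed in NTS WT and 16.8% in NTS KO livers. *Aacs*, which activates acetoacetate for lipid synthesis, fell by 2.91 on the log2 scale in NTS WT and by 3.66 in NTS KO livers (adjusted p = 0.014 and 0.00599, edgeR). The cytosolic thiolase *Acat2* fell by 1.47 and 2.18, and the cytosolic HMG-CoA synthase *Hmgcs1* by 1.90 and 3.27. *Acat3*, a close relative of *Acat2* with which reads could have been shared, was lower by 1.14 over both genotypes (adjusted p = 0.000147, edgeR). *Oxct2a* had 0 counts in all 12 livers and *Oxct2b*, the other testis-type transferase, did not exceed 0.0916 CPM.

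Among 14 other monocarboxylate transporter genes 9 were tested, of which 1 was higher and 0 were lower within each genotype (18.1% of all tested genes passed in NTS WT and 16.8% in NTS KO livers), and 1 was higher and 1 lower over both genotypes (32.8%). *Slc16a10*, a carrier of aromatic amino acids, rose by 0.70 over both genotypes (adjusted p = 0.000343, edgeR), from 65.8 to 98.95 CPM in fed livers to 121.6 to 168.0 CPM in fasted livers. *Slc16a6*, linked to ketone body export from hepatocytes in zebrafish, was at 3.91 to 8.02 CPM and had a log2 fold change of -0.02 (SE 0.18, adjusted p = 0.939, edgeR). *Slc16a3*, the lactate exporter MCT4, was at 0.201 to 0.596 CPM, with a log2 fold change of 0.31 (adjusted p = 0.473, edgeR). Of 3 chaperones that bring these transporters to the membrane, 0 passed over both genotypes, beside 32.8% of all tested genes. The log2 fold changes were 0.13 for *Bsg* (SE 0.09, 95% confidence interval -0.06 to 0.32), 0.05 for *Emb* and 0.20 for *Nptn*.

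Of 13 genes of carnitine shuttling and β-oxidation, which supply acetyl-CoA, 9 were higher in NTS WT livers (18.1% of all tested genes passed there in either direction), 10 in NTS KO livers (16.8%) and 10 over both genotypes (32.8%), and 0 were lower. *Echs1*, *Acads* and *Etfa* did not pass over both genotypes, with log2 fold changes of -0.0013, 0.25 and 0.27. The median log2 fold change of all 13 genes was 0.99 over both genotypes. *Acadm*, the medium-chain dehydrogenase, rose by 1.42, the trifunctional protein subunit *Hadha* by 0.99, the long-chain dehydrogenase *Acadl* by 1.03, the carnitine carrier *Slc25a20* by 1.13 and the electron transfer enzyme *Etfdh* by 1.12. Of 11 genes of leucine and isoleucine breakdown, the amino acid route that also ends in ketone bodies, 2 were higher and 1 was lower over both genotypes, a share no greater than the 32.8% of all tested genes. *Hsd17b10*, which acts just before ACAT1 in isoleucine breakdown, rose by 1.78 (adjusted p = 2.31e-06, edgeR), *Bckdha* rose by 0.32 and *Acadsb* fell by 0.46. The median of the 11 was 0.015.

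Of 12 regulators of ketogenesis, 4 were higher over both genotypes and 0 were lower, which is near the 32.8% of all tested genes that passed. The fasting hormone *Fgf21* rose by 2.96 (adjusted p = 4.23e-05, edgeR), from at most 4.21 CPM in fed to at least 18.2 CPM in fasted livers. *Ppara*, the nuclear receptor of the fasting response, rose by 0.75, *Creb3l3* by 0.72 and the coactivator *Ppargc1a* by 0.87 (adjusted p = 0.00207, 0.00189 and 0.0155, edgeR). *Ppargc1a* was at 5.54 to 7.35 CPM in NTS WT fed and 10.3 to 11.0 CPM in NTS WT fasted livers. In NTS KO livers it overlapped, at 6.84 to 8.06 CPM when fed and 6.78 to 24.98 CPM when fasted. The remaining 8 regulators did not pass, among them *Foxa2*, *Sirt3* and *Klb*. In the comparisons between genotypes, 0 genes of any of these lists passed with edgeR.

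**Figure D4:**
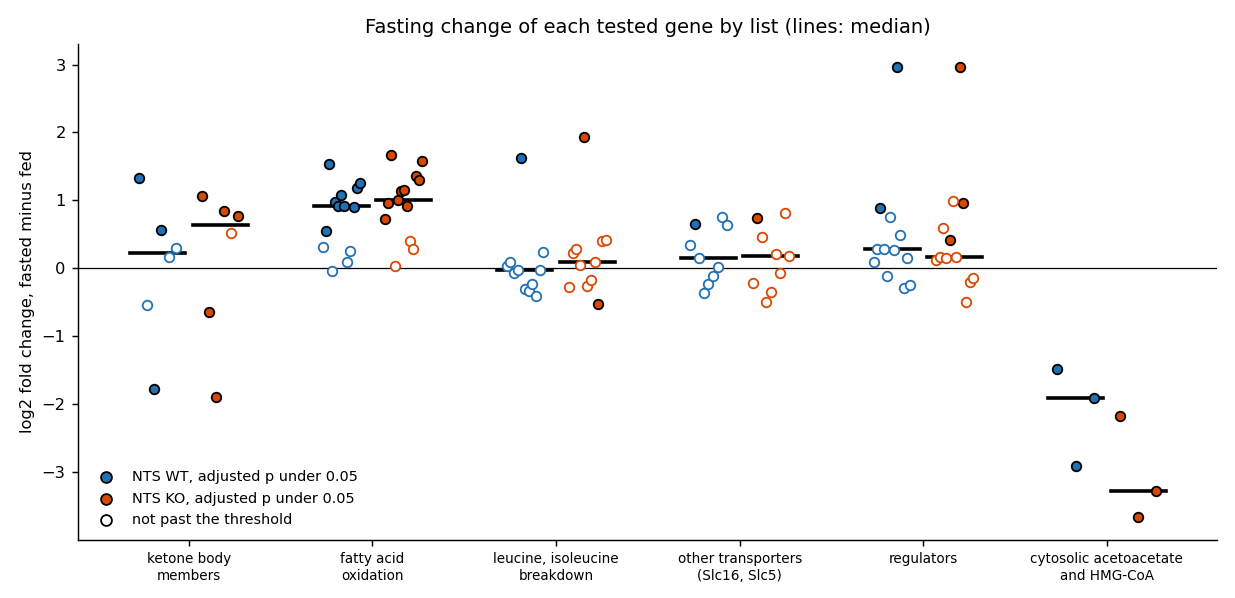
Log2 fold change with fasting (vertical axis) of each tested gene by list (horizontal axis), in blue for NTS WT and in orange for NTS KO livers, filled where the adjusted p was under 0.05, with lines at list medians. Fatty acid oxidation genes lie above 0 or near it, the cytosolic genes lie below -1, and the ketone body genes fall on both sides.

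Across the 12 livers the members differed in how closely they tracked each other. These correlations of log2 CPM are descriptions, since the points share libraries and the feeding states separate them. *Bdh2* and *Slc16a7* ran opposite to each other most closely (Pearson's r = -0.95, and -0.69 after subtracting group means). *Acat1* and *Bdh1* rose and fell together (r = 0.87, and 0.56 after subtracting group means). *Slc16a1* was the least coupled member, with r between -0.64 and 0.55 against the other 5.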

How the data were processed

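Liver RNA of 12 mice was extracted with a Qiagen RNeasy kit, and the labels name no batch that differs between libraries. The authors deposited expected counts, which estimate the reads of each gene, can be fractional and are unscaled, with GRCm38 positions. The submitters' processing notes name Trimmomatic, RSEM and GRCm38, and their versions and the strand setting are not given in the sources used here. Expected counts were rounded. With edgeR 4.0.16 (R 4.3.3), genes were filtered with filterByExpr, normalized with TMM and fitted in 1 robust quasi-likelihood model of all 12 mice, with Benjamini-Hochberg adjustment over 13812 genes and a threshold of 0.05. Intervals (95%) come from that model, and floors of 3 counts cover counting error only. Lengths came from GENCODE transcripts matched by identifier. Correlations used log2 CPM (prior count 2). Reads of similar genes, or of antisense partners, may have been shared. Some genes of the lists are not reported here.

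Members and lists were chosen with earlier results of these data known. All 6 members, and up to 5 genes per list by smallest p among those passing over both genotypes, were named, together with a fixed set of ketogenic, transport and fasting genes and the 3 genes most correlated with each member. Alternatives were RLE and upper-quartile normalization, DESeq2 1.42.0, no filter, at least 10 counts in every mouse, no mitochondrially encoded genes, only the mice compared, other thresholds, plain CPM, median transcript length, Spearman correlation and leaving out each mouse. On simulated data for fasted against fed NTS WT livers over 13812 genes, 84 of 100 genes changed by 2 on the log2 scale and 56 of 100 changed by 1 were recovered, with 10 calls among 13612 unchanged genes. A far smaller share of genes was changed there than the 18.1% that passed in NTS WT livers. The recovery rates therefore need not hold for the measured data.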

Additional observations from a re-analysis of the deposited data

How the results depend on the processing

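No paired analysis was made, because the groups share no mice and the labels used here name no litter. Any effect of litter was therefore not modelled. Of 372 alternative values of the members' fasting log2 fold changes, 346 kept direction and side of the threshold, 22 no longer passed, 4 newly passed and 0 reversed. Here and for genotype below, the values under other thresholds reuse the main estimates, so they could not reverse. When the fold change also had to reach 1 on the log2 scale, 2 members passed with fasting in NTS KO livers and 2 over both genotypes. In NTS WT livers *Acat1* (0.57) no longer passed under that rule. The share of all tested genes that met it was not counted. Without 1 mouse, 2 to 3 members passed in NTS WT, 4 to 5 in NTS KO livers and 5 to 6 over both. For these fits, too, the share of all tested genes that passed was not counted. Without a filter *Oxct1* no longer passed in NTS KO livers (adjusted p = 0.0756, edgeR), and with RLE normalization it stayed just under the threshold (0.04995).

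Of 372 values for genotype and its interaction with fasting, 21 reversed, none of them past the threshold before or after. *Slc16a1* in fasted livers, 0.0006906 at first, was -0.01259 without a filter and -4.088e-05 without mitochondrially encoded genes. Without 1 mouse, the NTS KO minus NTS WT value in fasted livers ranged from -0.1603 to 0.1812 for *Slc16a1*, from -0.2638 to 0.04929 for *Oxct1* and from -0.1212 to 0.2759 for *Bdh2*. In fed livers it ranged from -0.02869 to 0.1288 for *Oxct1*, from -0.2596 to 0.02025 for *Acat1*, from -0.06547 to 0.3445 for *Slc16a7* and from -0.1531 to 0.467 for *Bdh2*. The difference of fasting responses ranged from -0.3559 to 0.26 for *Bdh2* and from -0.3029 to 0.006436 for *Oxct1*. The cause was not tested, beyond fewer mice being fitted. By plain CPM, *Acat1* in NTS KO fed livers was 487.6 and *Oxct1* 5.23. Depth limits *Oxct1* and *Bdh2* most, with as few as 63 and 72 counts.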

Other observations

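Each member's nearest companions among the 13812 tested genes, by Pearson's r of log2 CPM over the 12 livers, are given as a description, since all points share libraries and feeding states, and the value after subtracting group means follows in brackets. *Bdh1* ran closest to *Acaa2*, the last thiolase of β-oxidation (0.98 [0.94]), then to *Pdhb*, a pyruvate dehydrogenase subunit (0.92 [0.80]), and *Dhrs4*, a peroxisomal dehydrogenase (0.92 [0.77]). *Acat1* ran closest to *Phyh*, which begins phytanic acid oxidation in peroxisomes (0.98 [0.95]), then to the fatty acid binding protein gene *Fabp2* (0.97 [0.88]) and to *Il15ra* (0.97 [0.92]). *Bdh2* ran closest to *Gas2* (0.97 [0.89]), to *Gcat*, an enzyme of threonine breakdown (0.97 [0.82]), and to *Tssc1* (0.97 [0.74]).

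*Oxct1* ran closest to the cell cycle factor *E2f1* (0.96 [0.90]), to *Gm2415* (0.93 [0.77]) and to the DNA repair gene *Neil1* (0.93 [0.78]). *Slc16a7* ran closest to *Mmp14* (0.97 [0.77]), *Cntnap1* (0.97 [0.72]) and *Bace1* (0.96 [0.80]). *Slc16a1* had lower values with *Zfp346* (0.89 [0.91]), *Clec1b* (0.89 [0.88]) and *Zfand6* (0.85 [0.84]). By Spearman's correlation, the first 3 companions shared 1 gene with these for *Bdh1*, *Acat1* and *Slc16a1* and 0 for *Bdh2*, *Oxct1* and *Slc16a7*, so the names depend on the measure.

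Markers of Kupffer cells, the resident macrophages, summed to 485 to 556 CPM in NTS WT fed and 246 to 423 CPM in NTS WT fasted livers. These ranges did not overlap, as for 36.0% of all tested genes. In NTS KO livers the ranges overlapped, at 300 to 426 CPM when fed and 307 to 482 CPM when fasted. There the marker *Marco* alone ran from 7.47 to 103.9 CPM in the fasted group. Of the 7 markers, 1 was lower in NTS WT livers (18.1% of all tested genes passed) and 0 passed in NTS KO livers (16.8%). For the difference between the fasting responses 0 passed, beside 0% of all tested genes.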
